A study of Mus musculus with 2 samples.

Results

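The Reg (regenerating islet-derived) genes encode small secreted proteins of the C-type lectin fold. Their RNA was followed here in the E15.5 pancreas of *Mafk*-Tg and WT embryos. The members were the probe sets that the platform table names with exactly 1 of the symbols *Reg1*, *Reg2*, *Reg3a*, *Reg3b*, *Reg3d*, *Reg3g* and *Reg4*. All 7 were found, each with 1 probe set, among 19938 genes that had a probe set of exactly 1 symbol. Affymetrix gene arrays had been hybridised with total RNA of whole pancreata, and the table held 1 array for *Mafk*-Tg and 1 for WT. The *Mafk*-Tg embryos carried a FLAG-tagged mouse *Mafk* cDNA driven by the rat insulin I promoter, which is active in β-cells, and the WT embryos carried no transgene. Both were kept on the ICR background. The design text gives 3 pancreata per genotype and the paper calls the array samples technical replicates, but whether each array held a pool is not stated in either. With 1 array per genotype there was no spread between replicates, no test was run, and every difference below has no replicate check.

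In the mouse, *Reg1* and *Reg2* encode the lithostathines, also called pancreatic stone proteins, which acinar cells secrete with the digestive enzymes. *Reg3b*, long known as pancreatitis-associated protein, and *Reg3g* encode lectins that act against bacteria at the gut surface and are induced by inflammation through IL-6 and IL-22 receptors and the factor STAT3. *Reg3d* is the mouse relative of the hamster islet neogenesis gene INGAP, *Reg3a* is a further member of the same subfamily, and *Reg4* is a gene of the intestinal epithelium. The Reg proteins have been studied as growth factors of islet and acinar cells, and EXTL3 has been described as a receptor for them.

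By RefSeq (GRCm38.p6), 6 of the genes lie on chromosome 6 as one cluster in the order *Reg3b*, *Reg3d*, *Reg3a*, *Reg2*, *Reg1* and *Reg3g*, while *Reg4* lies on chromosome 3. The cluster holds no other protein-coding gene and 1 pseudogene, *Gm52853*, between *Reg1* and *Reg3g*. The 250 bases before the annotated starts of 3 genes are shown, since *Reg1* and *Reg3d* were the members with higher signal in *Mafk*-Tg and *Reg2* is the cluster neighbour of *Reg1* with the opposite sign. They are the RefSeq sequences of chr6:78425733-78425982 on the plus strand for *Reg1*, chr6:78378866-78379115 on the minus strand for *Reg3d* and chr6:78404905-78405154 on the plus strand for *Reg2*. Capitals mark TATAAA on the gene strand, the E-box CACCTG, and both ends of a pair in which CANNTG is followed, after 6 bases, by TTCCCA. The E-box and the pair were searched on both strands.
Reg1: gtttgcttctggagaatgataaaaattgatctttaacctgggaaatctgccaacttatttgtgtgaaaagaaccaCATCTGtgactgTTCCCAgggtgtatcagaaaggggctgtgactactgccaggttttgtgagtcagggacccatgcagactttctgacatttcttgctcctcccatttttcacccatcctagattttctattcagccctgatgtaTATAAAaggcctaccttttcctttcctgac
Reg3d: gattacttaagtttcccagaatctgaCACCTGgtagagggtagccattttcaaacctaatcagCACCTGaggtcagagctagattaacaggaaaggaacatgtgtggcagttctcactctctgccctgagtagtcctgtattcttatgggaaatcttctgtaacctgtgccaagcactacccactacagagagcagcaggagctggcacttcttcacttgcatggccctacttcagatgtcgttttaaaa
Reg2: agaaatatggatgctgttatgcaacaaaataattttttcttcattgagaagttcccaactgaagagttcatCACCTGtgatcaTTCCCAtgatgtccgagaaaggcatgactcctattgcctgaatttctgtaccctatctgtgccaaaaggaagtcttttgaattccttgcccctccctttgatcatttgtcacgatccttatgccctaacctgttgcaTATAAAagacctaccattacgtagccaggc

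*Reg1* and *Reg2* carried the same arrangement upstream, with the pair beginning 175 and 179 bases before the start and TATAAA beginning 30 bases before the start in both. The pair joins an E-box to TTCCCA, the kind of bipartite sequence bound by PTF1, the acinar complex of PTF1A, an E protein and RBPJL. It was written down after these sequences had been read, and it occurred in 0.0883% of 32851 windows of 250 bases before annotated mouse starts and in 2 of the 7 Reg windows. TATAAA occurred in 7.59% of all windows and in 4 of the Reg windows, those of *Reg1*, *Reg2*, *Reg3b* and *Reg3g*. CACCTG, part of the pair in *Reg2* but not in *Reg1*, occurred in 17.2% of all windows and in 5 Reg windows, with 2 matches before *Reg3d*. The pattern TTCNNNGAA, which STAT factors bind, was found before *Reg3b* and *Reg3d*, against 7.02% of all windows. TGACTCA, the AP-1 core, was found on either strand in 4.46% of all windows and before *Reg1* alone among the Reg genes. TGCTGAC, an extended half-site of MAF proteins searched on both strands, was in 3.81% of all windows and in 0 of the Reg windows. In a global alignment the windows of *Reg3b* and *Reg3g* were the most alike, at 68.9% identity, followed by those of *Reg1* and *Reg2* at 58.5%. The other pairs, those with *Reg4* on another chromosome included, lay between 47.8% and 54.5%.

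**Figure D1:**
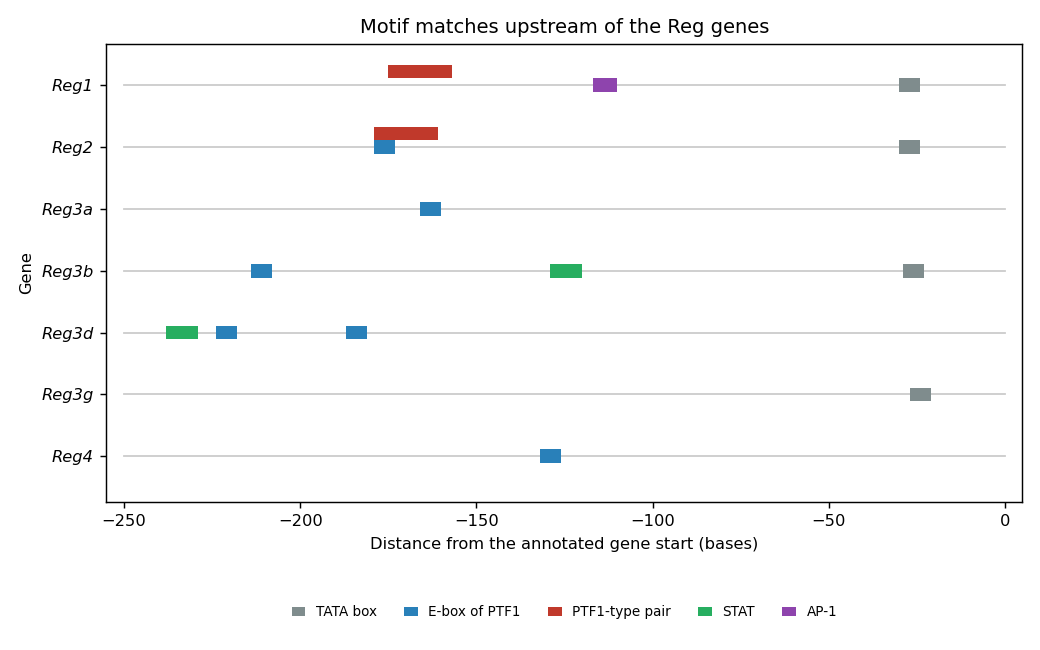
Positions of motif matches in the 250 bases before the annotated start of each Reg gene, in bases from the start, with 1 line per gene. *Reg1* and *Reg2* hold the PTF1-type pair at 175 and 179 bases before the start and a TATA box at 30. The pair was written down after these sequences had been read, so its absence from the other Reg genes is no test.

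Both Reg genes above the lower quartile of the signals were higher in *Mafk*-Tg, while the other 5 had differences of both signs. *Reg1* and *Reg3d* reached 1.2-fold upward in *Mafk*-Tg, *Reg2* and *Reg3g* reached it downward, and *Reg3a*, *Reg3b* and *Reg4* lay under 1.2-fold, the cutoff of the study, which is 0.26 on the log2 scale. Over all 19938 genes, the shares that reached 1.2-fold were 7.96% upward and 10.5% downward. The median of the 7 log2 differences, *Mafk*-Tg minus WT, was 0.10, against -0.01 over all genes. *Reg1* alone had a signal above the array medians, which were 6.01 in *Mafk*-Tg and 6.01 in WT. Of the other 6 genes, 5 lay below the lower quartile of both arrays, 4.61 in *Mafk*-Tg and 4.62 in WT, a range in which much of an array signal is background. Brightness also depends on the probes, so these levels do not order the RNA amounts of the members.

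**Figure D2:**
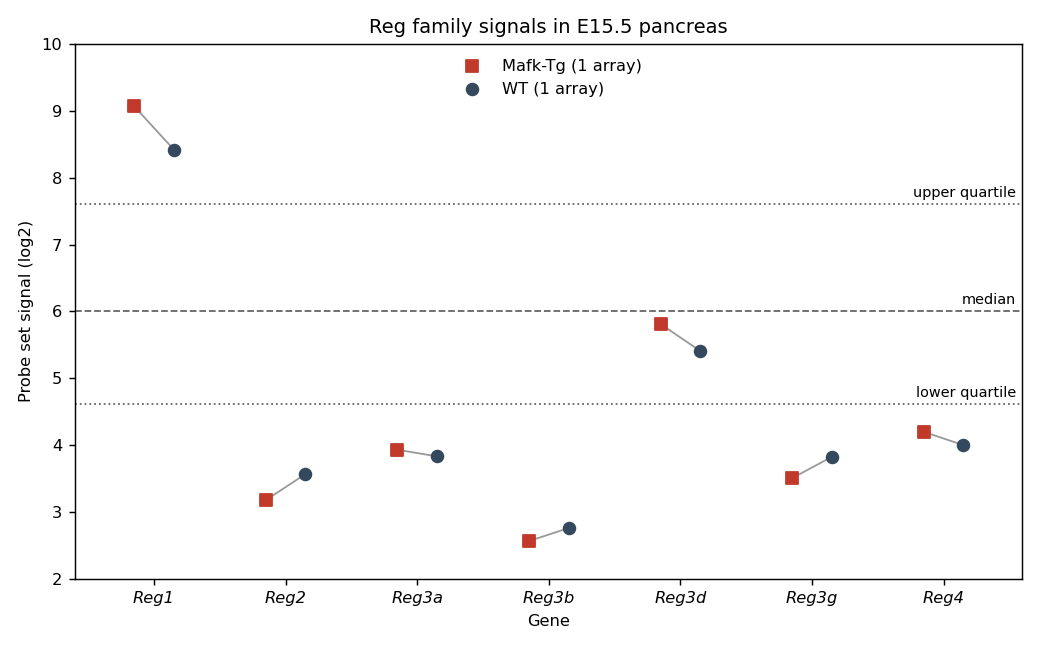
Log2 probe set signal of each Reg gene in *Mafk*-Tg (red squares) and WT (dark circles), 1 array per genotype, with lines at the mean of both arrays' quartiles and medians. *Reg1* lies above the upper quartile on both arrays, *Reg3d* between the lower quartile and the median, and the other 5 genes below the lower quartile.

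*Reg1*, a lithostathine gene, had a log2 signal of 9.07 in the *Mafk*-Tg array and 8.42 in the WT array, which are 536 in *Mafk*-Tg and 343 in WT on the linear scale. The difference was 0.64, a 1.56-fold higher signal in *Mafk*-Tg. It was the 20th largest increase among the 11412 genes with a mean signal of at least the probe set median, of which 5.58% were at least 1.2-fold higher and 5.87% at least 1.2-fold lower. Among the 1071 genes within 0.25 log2 units of its mean level, 61 were at least 1.2-fold higher, and *Reg1* ranked 4 from the top. The robust SD of the differences of those genes, which describes the scatter between these arrays and not between animals, was 0.13. *Reg1* was thus higher by more than nearly all genes of its brightness.

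*Reg2*, the second lithostathine gene, had 3.18 in *Mafk*-Tg and 3.57 in WT, a log2 difference of -0.39, with linear signals of 9.05 in *Mafk*-Tg and 11.8 in WT. The difference has the opposite sign to that of *Reg1*, next to it in the cluster. At this level such a difference was common, since 22.9% of the 773 genes of similar brightness were at least 1.2-fold lower and 100 of them, *Reg2* included, lay at or below its value. The probe sequences were not analysed here, so hybridisation of one lithostathine RNA to the probes of the other was not tested.

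*Reg3d*, the INGAP relative, had a log2 signal of 5.81 in *Mafk*-Tg and 5.41 in WT, a difference of 0.40 or 1.32-fold. Both values were under the array medians but above the lower quartiles. Of the 1727 genes of similar brightness, 9.50% were at least 1.2-fold higher, and *Reg3d* ranked 53 from the top. It was the only gene of the Reg3 subfamily that was at least 1.2-fold higher.

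The antibacterial lectin genes were dim. *Reg3g* had 3.51 in *Mafk*-Tg and 3.82 in WT, a difference of -0.32, at a level where 21.4% of 907 genes were at least 1.2-fold lower. *Reg3b* had 2.56 in *Mafk*-Tg and 2.76 in WT, a difference of -0.19. Both negative differences lie within the range common at the level of these genes. *Reg3a* had 3.93 in *Mafk*-Tg and 3.83 in WT, a difference of 0.10. *Reg4*, the member outside the cluster, had 4.20 in *Mafk*-Tg and 4.0 in WT, a difference of 0.20. Over all genes below the lower quartile of level, 12.8% were at least 1.2-fold higher and 20.6% at least 1.2-fold lower. Of the 5 dim Reg genes 0 were higher and 2 were lower by that cutoff.

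**Figure D3:**
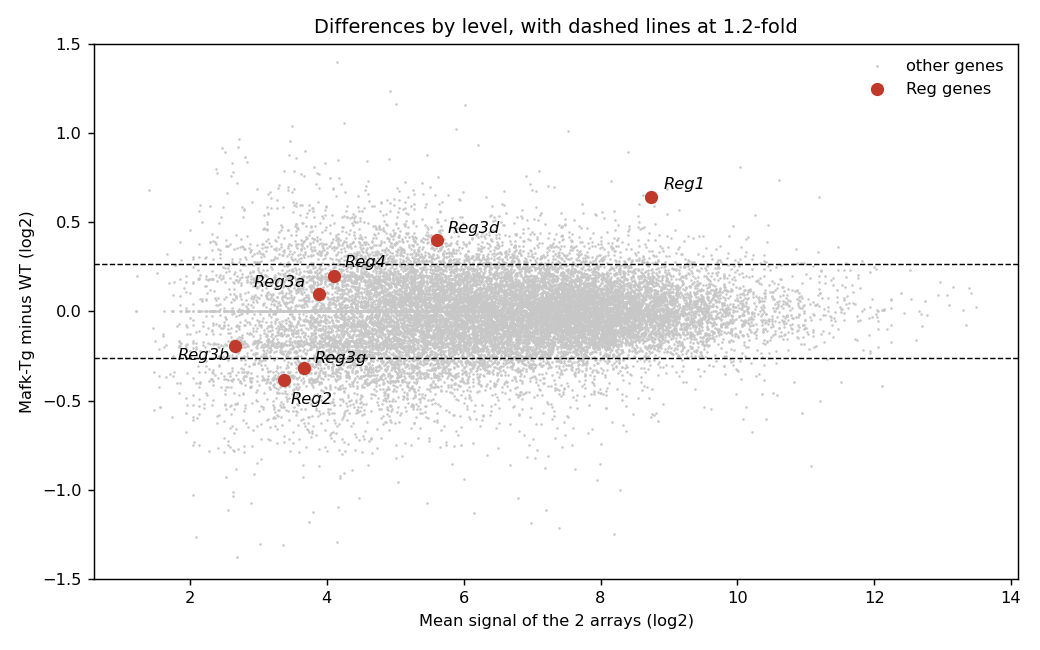
Log2 difference, *Mafk*-Tg minus WT, against the mean log2 signal of both arrays for all genes (grey) and the Reg genes (red), with dashed lines at 1.2-fold. *Reg1* at 0.64 lies at the upper edge of genes of its brightness, the 5 dim Reg genes lie inside the wide scatter on the left, and 9 genes beyond 1.5 in size are outside the plot.

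The protein-coding genes with a value that came next on either side of the cluster, with RefSeq genes ordered by start position, were measured too. Gene ends were not compared, so another gene may reach closer to the cluster. *Lrrtm1*, on the *Reg3b* side, had 5.14 in *Mafk*-Tg and 4.78 in WT, a difference of 0.36. *Lrrtm4*, on the *Reg3g* side, had 4.11 in *Mafk*-Tg and 4.44 in WT, a difference of -0.33. Both encode neuronal membrane proteins and were below the array medians. Of all genes, 7.96% were at least 1.2-fold higher. Below the lower quartile of level, where *Lrrtm4* lay, 20.6% of genes were at least 1.2-fold lower. In cluster order the log2 differences were -0.19 for *Reg3b*, 0.40 for *Reg3d*, 0.10 for *Reg3a*, -0.39 for *Reg2*, 0.64 for *Reg1* and -0.32 for *Reg3g*.

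In the compartment in which the lithostathines are made, 14 of 28 measured acinar secretory genes were at least 1.2-fold higher and 0 were lower, against 7.96% and 10.5% of all genes. The other 14 lay under 1.2-fold, 4 of them with a difference below 0. The list holds no Reg gene, and its median log2 difference was 0.28, against -0.01 over all genes. Of these genes, 5 had a difference at or above that of *Reg1*. *Dmbt1*, which encodes a secreted scavenger receptor of mucosal surfaces, had the largest, with 6.40 in *Mafk*-Tg and 5.37, under the array median, in WT. *Amy1*, a salivary-type amylase gene near the median of the list, had 6.36 in *Mafk*-Tg and 6.06 in WT. The carboxypeptidase gene *Cpa1*, the brightest of the list, had 13.51 in *Mafk*-Tg and 13.48 in WT, close to the top of the scale. The chymotrypsin-like gene *Ctrl* had the lowest difference, -0.20, with 7.44 in *Mafk*-Tg and 7.64 in WT. These markers show that the tissue labelled pancreas held abundant acinar RNA on both arrays.

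Acinar transcription factor genes differed in the same direction as *Reg1* but by less. Of 7 measured, 2 were at least 1.2-fold higher and 0 lower, against 7.96% and 10.5% of all genes. All 7 had a difference above 0, with a median of 0.20, and none reached the difference of *Reg1*. *Bhlha15*, the gene of the secretory maturation factor MIST1, had 9.50 in *Mafk*-Tg and 9.07 in WT. The genes of PTF1A and RBPJL lay under 1.2-fold, and no E protein gene was examined. *Rbpjl* had 9.91 in *Mafk*-Tg and 9.71 in WT, while *Ptf1a*, named after its values had been seen, had 8.73 in *Mafk*-Tg and 8.49 in WT. *Xbp1*, a regulator of secretory capacity, had the smallest difference, 0.05. Whether the higher *Reg1* signal came from a larger acinar share of the RNA or from more *Reg1* RNA per acinar cell cannot be told apart here. The RNA was of whole pancreas, and the part of the acinar genes in the *Reg1* signal was not tested.

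**Figure D4:**
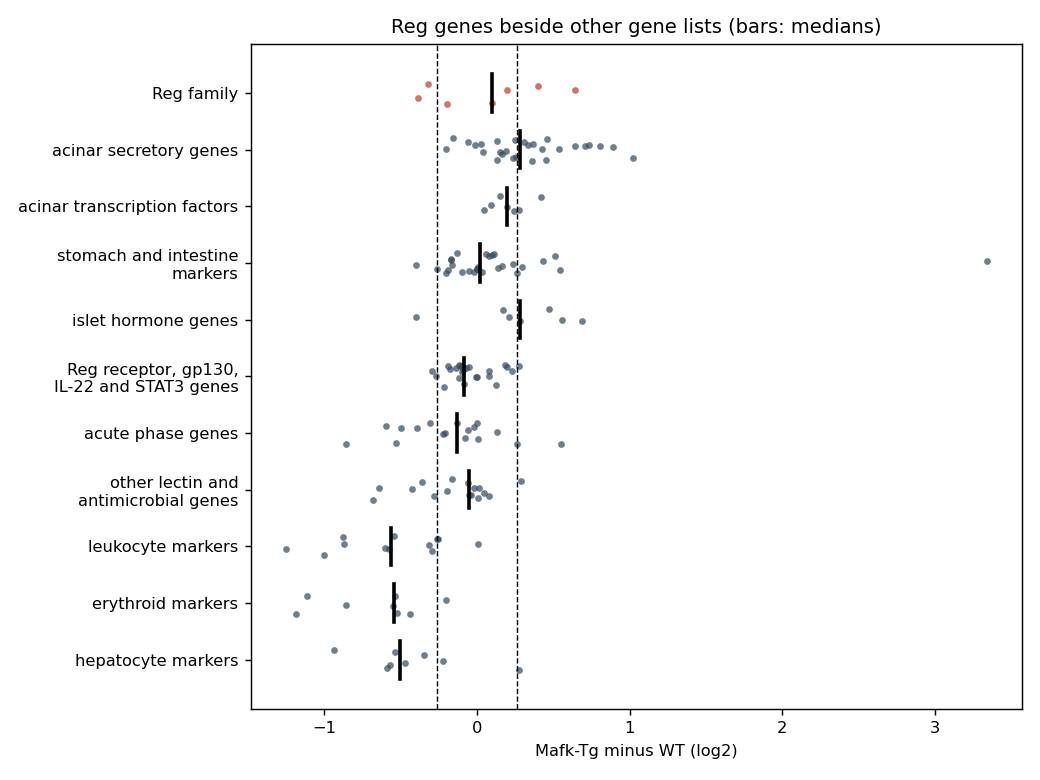
Log2 difference, *Mafk*-Tg minus WT, of the 7 Reg genes (red) and of the measured members of 10 gene lists (dark), with 1 array per genotype, black bars at the medians and dashed lines at 1.2-fold. The Reg genes range from -0.39 to 0.64 around a median of 0.10, while the acinar secretory genes have a median of 0.28 and the leukocyte markers one of -0.56.

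RNA of the receptor and of signalling genes that act on or upstream of Reg genes was not higher as a list. Of 24 measured genes of the Reg receptor and of gp130, IL-22 and STAT3 signalling, 1 was at least 1.2-fold higher and 2 were lower. These shares of 4.17% and 8.33% stand against 7.96% and 10.5% of all genes. The difference was above 0 in 7 of the listed genes and below 0 in 16, with a median of -0.09. Pathway activity was not tested. *Extl3*, the described Reg receptor gene, had 9.25 in *Mafk*-Tg and 9.07 in WT. *Il22ra1*, the epithelial IL-22 receptor chain gene, had 8.08 in *Mafk*-Tg and 7.88 in WT. *Il6st*, which encodes gp130, had 9.25 in *Mafk*-Tg and 9.36 in WT. *Stat3* had 8.04 in *Mafk*-Tg and 8.18 in WT, and *Socs3*, a STAT3 target that restrains the pathway, had 6.12 in *Mafk*-Tg and 6.22 in WT. These 5 genes were all under 1.2-fold. The brightest gene of the list, the kinase gene *Jak1*, had a difference of -0.05, and the receptor gene *Il6ra*, near the median, had -0.09. The gene past the cutoff upward was *Il6*, with 3.15 in *Mafk*-Tg and 2.88 in WT, and the lowest difference was that of the decoy receptor gene *Il22ra2*, with 3.73 in *Mafk*-Tg and 4.02 in WT, both below the lower quartiles. With 16 added to the linear values, or without the dim probe sets, 0 genes of the list were higher and 0 lower.

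Other genes known to rise with *Reg3b* and *Reg3g* in inflammation were not higher as a list. Of 17 acute phase genes 2 were at least 1.2-fold higher and 6 were lower. These shares of 11.8% and 35.3% stand against 7.96% and 10.5% of all genes. The difference was above 0 in 4 of the listed genes and below 0 in 12, with a median of -0.13. The counts past 1.2-fold were 1 and 3 with 16 added to the linear values, and 0 and 2 without the dim probe sets. *Hp*, the haptoglobin gene, had 6.25 in *Mafk*-Tg and 7.11 in WT, and *Apcs*, the gene of serum amyloid P, had 5.14 in *Mafk*-Tg and 4.60 in WT. *Lcn2*, which encodes lipocalin 2, had a difference of -0.08 and *Bcl3* one of -0.13. Several of these are liver genes. Of 8 hepatocyte markers 6 were at least 1.2-fold lower and 1 was higher, against 10.5% and 7.96% of all genes. The median of the hepatocyte markers was -0.50. *Alb* had 10.66 in *Mafk*-Tg and 11.23 in WT, *Apob* had a difference of -0.94, *Apoa2* one of -0.54 and *Ttr* one of 0.27. The part of hepatocyte RNA in the acute phase values was not tested.

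Of 16 other secreted lectin and antimicrobial genes, 1 was at least 1.2-fold higher and 5 were lower, against 7.96% and 10.5% of all genes. Their median was -0.05, and without the dim probe sets 0 were higher and 3 lower. *Lyz2*, a lysozyme gene of macrophages, had 9.88 in *Mafk*-Tg and 10.56 in WT. The intestinal lectin gene *Itln1* had 4.81 in *Mafk*-Tg and 4.53 in WT, and the phospholipase gene *Pla2g2a* had a difference of -0.05. Leukocyte markers were lower in the same array, 10 of 12 with 0 higher, against 10.5% of all genes lower and 7.96% higher. Their median was -0.56, with differences between -1.25 for *Ctsg* and 0.01 for *Cd68*. *Srgn* had -0.87 and *Tyrobp* -0.54. Of 8 erythroid markers 7 were lower and 0 higher, against the same shares of all genes, with a median of -0.54. Among the lower ones were *Car1* at -1.19, *Car2* at -0.55 and *Slc4a1* at -0.54, while *Alas2* had -0.20. The part of these cells in the lysozyme and lectin values was not tested.

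Gut epithelium, the other main site of Reg3 and *Reg4* RNA, was checked with 28 measured stomach and intestine markers. Of these, 5 were at least 1.2-fold higher and 2 were lower, and the median was 0.02. The shares were 17.9% higher and 7.14% lower, against 7.96% and 10.5% of all genes. *Cym*, the gene of the gastric protease chymosin, had the largest difference of the list, with 10.51 in *Mafk*-Tg and 7.17 in WT. *Pgc*, which encodes gastric pepsinogen C, had 4.88 in *Mafk*-Tg and 4.88 in WT, and the gastrokine gene *Gkn1* had 5.08 in *Mafk*-Tg and 5.48 in WT. *Anpep*, the brush border peptidase gene and the brightest of the list, had a difference of -0.02. A mean signal of at least the probe set median was found for 7 of the 28 markers. *Agr2*, *Cdx1*, *Krt20* and *Atp4a* were the other markers at least 1.2-fold higher, with differences of 0.54, 0.51, 0.43 and 0.30. With the probe sets under the median level left out, 4 markers were higher and 0 lower, and the median was 0.30. The Reg genes of the gut, *Reg3b*, *Reg3g* and *Reg4*, were below the lower quartiles of both arrays.

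Of 7 measured islet hormone genes, 4 were at least 1.2-fold higher and 1 was lower, against 7.96% and 10.5% of all genes. The difference was above 0 in 6 of them and below 0 in 1, with a median of 0.28. *Pyy* had 9.32 in *Mafk*-Tg and 8.63 in WT, close to the difference of *Reg1*, *Gcg* had 11.96 in *Mafk*-Tg and 11.68 in WT, and *Ins2* had 8.40 in *Mafk*-Tg and 8.79 in WT. *Mafk* itself had 7.0 in *Mafk*-Tg and 6.75 in WT, under 1.2-fold in RNA of the whole organ. The arrays also differed in sex-linked genes, with *Xist* at 11.30 in *Mafk*-Tg and 4.40 in WT and the Y-linked *Eif2s3y*, *Uty* and *Kdm5d* lower in *Mafk*-Tg by differences of -5.68, -4.67 and -3.93. Genotype and these sex-linked signals run together. Their parts cannot be told apart in any difference reported here, those of *Reg1* and *Reg3d* included.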

How the data were processed

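RNA of whole E15.5 pancreata of *Mafk*-Tg and WT embryos was hybridised to GeneChip MoGene-1_0-st-v1 arrays, 1 array per genotype here. RNA extraction was by phenol reagent in the labels and by column in the paper's methods. Normalization and probe set summaries were made by the authors with Affymetrix Expression Console, with its algorithm and version not given in the sources used here. Deposited values are on the log2 scale and were used without further scaling. Of 35556 probe sets, 21789 had 1 gene symbol in the platform table, 1621 had several, of which 0 included a Reg gene, and 12146 are unnamed here. Single-symbol probe sets were averaged per gene.

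Differences are *Mafk*-Tg minus WT, called past 1.2-fold. No test was possible with 1 array each, and precision is limited by the number of arrays. Members and gene lists were chosen with earlier results of these data known. Named genes include the 7 members, the brightest, highest, lowest and median gene of each list, 5 signalling genes, *Mafk*, *Cym* and 4 sex-linked genes. The genes next to the cluster in the order of gene starts were also named, and *Ptf1a* was added after its values were seen. No gene was sought for a likeness to the members, since 2 arrays give no pattern. Promoter sequences came from RefSeq, and all 7 members matched. Alternatives were equal medians, quantile normalization, loess (span 0.3), the brightest probe set, leaving out dim probe sets, cutoffs of 1.1-fold and 1.5-fold, and adding 16 to the linear values. The steps were tested on simulated data. Software was Biopython 1.88, matplotlib 3.10.9, statsmodels 0.14.6, pandas 2.3.3, numpy 2.4.6 and Python 3.11.15.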

Additional observations from a re-analysis of the deposited data

How the results depend on the processing

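The same Reg genes passed 1.2-fold with equal medians, quantile normalization and loess, *Reg1* and *Reg3d* higher and *Reg2* and *Reg3g* lower. They also passed with the brightest probe set, but that setting cannot change genes with 1 probe set each. Over these settings 7.81% to 8.68% of all genes were higher and 9.64% to 10.8% lower. With 16 added to the linear values 2 were higher and 0 lower, since *Reg2* and *Reg3g* shrank to -0.15 and -0.14. In that setting 764 genes (3.83% of all) were higher and 907 (4.55%) lower. Without probe sets below the median level *Reg1* was left alone, with 1 higher, 0 lower and a median of 0.64. Of the 11517 genes left in that setting, 644 (5.59%) were higher and 680 (5.9%) lower. At 1.5-fold 1 Reg gene was higher and 0 were lower, beside 139 genes (0.697% of all) higher and 253 (1.27%) lower. At 1.1-fold 3 Reg genes were higher and 3 lower, beside 4140 genes (20.8% of all) higher and 5117 (25.7%) lower. The difference of *Reg1* lay between 0.62 and 0.64 over the 6 alternatives other than the cutoffs, and that of *Reg3d* between 0.30 and 0.41 over 5. Among these, the brightest probe set could not change either difference, and leaving out dim probe sets could not change that of *Reg1*. A cutoff does not change a difference, and *Reg3d* had no value without dim probe sets. No paired analysis was possible because each genotype had 1 array.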

Other observations

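Of the 19938 genes, 687 had exactly the same value on both arrays, and 0 of the Reg genes were among them.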
